A study of Mus musculus with 8 samples.

Results

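Cytochrome P450 genes encode a family of enzymes that carry a haem group and insert oxygen into sterols, steroid hormones, vitamin D, fatty acids, drugs and other small molecules. RNA-seq detected 26 of them in mouse embryonic fibroblasts (MEFs) and in MEFs treated with 1 of 3 compounds. Members were chosen by symbol and by reads. They are the P450 genes whose symbol ends in a number and that held at least 10 reads summed over the 8 libraries, leaving out 6 genes (Cyp1a1, Cyp1a2, Cyp1b1, Cyp26a1, Cyp26b1 and Cyp51). The 26 genes come from 89 P450 genes with such a symbol and from 50578 genes counted in all. Of the other 63 P450 genes, 40 had no read in any library and 23 had 1 to 9 reads in total.

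The study had picked compounds by computation for turning fibroblasts into liver-like cells. The untreated group held 2 libraries of wild-type MEFs, which are primary connective tissue cells grown from mid-gestation C57BL/6J embryos after removal of the head, tail, limbs and internal organs. The other groups held 2 libraries each of the same wild-type MEFs kept at 10 µM of a single compound. These were carbidopa, which blocks the decarboxylase of aromatic amino acids, LY-364947, a blocker of the type I receptor for TGF-beta, and CHIR-99021, a blocker of the kinase GSK3. In the labels LY-364947 is spelled LY-364747, and these call the treated cells hepatic-like. The study gives a treatment time for its PCR assays, but none for these libraries was found in the sources used here, nor whether the untreated cells received the solvent. All groups share 1 pair of untreated libraries, so the 3 comparisons with MEFs are not independent of each other. Nothing says that the libraries of a group came from separate cultures, so p-values measure only the spread between these libraries, which may be technical.

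Total counts ranged from 15039566 to 20504338 per library, and the 26 P450 genes took between 0.0180% and 0.0397% of them. Differences were tested with edgeR's quasi-likelihood test over 15154 genes, with a call at a Benjamini-Hochberg adjusted p under 0.05. The 2 carbidopa libraries differed from each other the most, with a chi-square per degree of freedom of 36.4 against 4.35 to 9.38 for the other pairs. The hepatic-like label was checked against 10 hepatocyte markers. These held 13 and 5 reads in all in the MEF libraries and 13 to 22 in treated libraries, and none passed the filter on low counts. Apob held 10 and 2 of the MEF reads and 0 to 6 in treated libraries. Alb held 2 and 0 reads in MEFs and 5 to 10 in treated libraries, and Hnf4a 1 and 2 in MEFs and 6 to 10. Tat, Serpina1a and Ahsg had no read in any library. By PCR, the study reported Alb and Hnf4a higher in treated cells, as folds over control cells, which give no absolute level. It also reported epithelial-like morphology, staining for glycogen and fat, and clustering of treated cells close to hepatic progenitor-like cells. Of 9 fibroblast markers, 7 fell and 1 rose with each compound, with a sum of 15846 to 16092 CPM (counts scaled by TMM to libraries of equal size, the unit of all levels below) in MEFs and 5907 to 8121 in treated libraries. The sum of 6 epithelial markers was 3.10 to 4.16 in MEFs and 9.82 to 21.4 in treated libraries. Most of it was Krt19, at 3.20 and 2.32 in MEFs and 6.09 to 19.2 in treated libraries. Epcam, Cdh1 and Krt8 held at most 6 reads in a library and were not tested. Of the 3 tested, 1, 1 and 3 rose under carbidopa, LY-364947 and CHIR-99021. The summed level of 16 macrophage markers was 1342 to 1396 CPM in MEFs, 401 to 414 under carbidopa, 301 to 304 under LY-364947 and 103 to 109.7 under CHIR-99021. Of its 13 tested genes, 12, 12 and 13 fell and none rose, while Cd163, which was not tested, had at most 1 read in a library. In whole cultures, fewer cells of a type and less RNA per cell cannot be told apart, and the part of these markers in the P450 results below was not tested.

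P450 enzymes of the endoplasmic reticulum receive electrons from the reductase encoded by Por, helped in places by cytochrome b5, and those of mitochondria receive them through ferredoxin. The liver is the richest source of many members, where they make bile acids from cholesterol and clear drugs. Others act in the lung, the brain, the adrenal gland and the kidney on fatty acids, oxysterols, steroids and vitamin D. By role, 4 detected genes act on sterols and bile acid precursors, 9 on fatty acids and eicosanoids, 7 on foreign compounds or on several substrates, 3 on vitamin D and 2 in steroid hormone synthesis, and Cyp20a1 is an orphan without a settled substrate. Reads were uneven among these roles. The sterol group held 17204 reads over all libraries and the fatty acid group 16848, against 5425 for Cyp20a1, 2388 for the foreign compound group, 219 for the steroid hormone group and 209 for the vitamin D group. The 26 genes lie on 13 chromosomes.

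The upstream sequences of genes that changed together with all 3 compounds are shown for comparison. RefSeq windows of build GRCm38.p6 were matched for 17 of the 26 genes, and 6 of the 10 genes that passed the test in the same direction with every compound have one. The 250 bases before the annotated start are printed 5′ to 3′ on the gene's own strand, for Cyp27a1 (chr1:74713285-74713534, plus strand) and Cyp3a13 (chr5:137921620-137921869, minus strand), which rose, and for Cyp20a1 (chr1:60343050-60343299, plus strand), Cyp2f2 (chr7:27119705-27119954, plus strand), Cyp2j9 (chr4:96591486-96591735, minus strand) and Cyp4v3 (chr8:45333164-45333413, minus strand), which fell. Capitals mark matches, on either strand, to the nuclear receptor hexamer AGGTCA, to the GC box motif GGGCGG, to the box motif CCAAT, to the start-site motif TATAAA, or to GCGTG, the core of the aryl hydrocarbon receptor element.
Cyp27a1: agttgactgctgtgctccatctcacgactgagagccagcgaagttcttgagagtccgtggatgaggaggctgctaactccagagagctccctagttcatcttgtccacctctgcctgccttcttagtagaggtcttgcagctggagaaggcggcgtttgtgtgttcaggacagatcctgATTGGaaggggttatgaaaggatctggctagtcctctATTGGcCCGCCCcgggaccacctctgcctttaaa
Cyp3a13: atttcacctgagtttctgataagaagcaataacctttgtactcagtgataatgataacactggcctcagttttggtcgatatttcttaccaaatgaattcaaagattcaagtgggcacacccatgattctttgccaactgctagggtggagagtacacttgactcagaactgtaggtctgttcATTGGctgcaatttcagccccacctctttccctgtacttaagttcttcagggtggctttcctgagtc
Cyp20a1: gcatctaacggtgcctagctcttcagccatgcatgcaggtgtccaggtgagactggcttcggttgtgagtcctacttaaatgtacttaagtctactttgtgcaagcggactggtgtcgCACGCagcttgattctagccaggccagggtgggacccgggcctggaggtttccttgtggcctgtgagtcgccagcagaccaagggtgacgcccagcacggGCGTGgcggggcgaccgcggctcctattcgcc
Cyp2f2: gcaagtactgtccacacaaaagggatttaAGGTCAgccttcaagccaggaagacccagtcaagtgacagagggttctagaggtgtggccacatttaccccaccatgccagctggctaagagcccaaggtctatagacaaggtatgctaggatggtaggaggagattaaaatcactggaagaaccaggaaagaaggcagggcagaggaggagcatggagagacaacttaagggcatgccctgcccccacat
Cyp2j9: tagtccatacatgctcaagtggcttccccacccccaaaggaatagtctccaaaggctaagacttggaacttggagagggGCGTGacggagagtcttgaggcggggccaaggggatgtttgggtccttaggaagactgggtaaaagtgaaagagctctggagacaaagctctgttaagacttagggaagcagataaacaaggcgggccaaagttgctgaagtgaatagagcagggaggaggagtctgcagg
Cyp4v3: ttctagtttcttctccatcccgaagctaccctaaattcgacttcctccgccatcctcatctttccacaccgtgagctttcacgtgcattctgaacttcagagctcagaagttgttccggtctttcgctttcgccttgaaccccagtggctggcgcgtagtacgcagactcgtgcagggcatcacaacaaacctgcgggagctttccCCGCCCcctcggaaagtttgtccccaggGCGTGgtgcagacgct

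The window of Cyp27a1 held 2 matches to CCAAT and 1 to GGGCGG, and that of Cyp3a13 held 1 match to CCAAT. Among the genes that fell, Cyp20a1 held 2 matches to GCGTG, Cyp2j9 held 1, and Cyp4v3 held 1 to GCGTG and 1 to GGGCGG. Cyp2f2 held 1 match to AGGTCA. No match overlapped another in these windows. The starts are those of RefSeq. By the GENCODE positions given below for the genes, the windows of Cyp2f2, Cyp2j9 and Cyp4v3 reach into the gene. Both matches of Cyp4v3 lie in that part. Over 32851 such windows of the genome, 14.0% held AGGTCA, 32.7% GGGCGG, 33.8% CCAAT, 12.4% TATAAA and 28.2% GCGTG. The letters are described here and were not tested for binding.

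Of the 26 genes, 20 passed the filter on low counts and could be tested. Carbidopa changed 15 of them against MEFs, 10 higher and 5 lower, where 37.7% of all tested genes were called. LY-364947 changed 14, 10 higher and 4 lower, where the share over all genes was 31.0%. CHIR-99021 changed 12, 7 higher and 5 lower, where it was 38.8%. By direction, the share of all tested genes called was 18.0% higher and 19.7% lower under carbidopa, 13.7% and 17.2% under LY-364947, and 18.7% and 20.1% under CHIR-99021. Over the 20 genes, log2 fold changes had a median of 0.42, 0.51 and 0.42 in that order, beside 0.04, 0.03 and 0.04 over all tested genes. These counts and medians describe the genes that passed the filter and support nothing by themselves, since genes nearly without reads in MEFs, such as Cyp46a1, Cyp11b1 and Cyp3a13, had to be higher after treatment to pass it. Among the 13 genes with at least 10 counts in every library, a filter that also drops Cyp2f2, 6 rose with each compound, and 4, 3 and 4 fell. Their medians were 0.40, 0.49 and 0.34. Shares over all genes under that filter are not given here, so these counts are a description only. Cyp7b1, Cyp27a1, Cyp2d22, Cyp2u1, Cyp3a13 and Cyp4f17 rose with every compound, and Cyp20a1, Cyp2f2, Cyp2j9 and Cyp4v3 fell with every compound. Another 7 genes passed with 1 or 2 compounds, and Cyp11a1, Cyp2s1 and Cyp4f13 passed with none. The 3 comparisons share their MEF libraries, so a gene called in all of them was not found 3 times independently. The share of all tested genes called with every compound is not given here either.

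**Figure D1:**
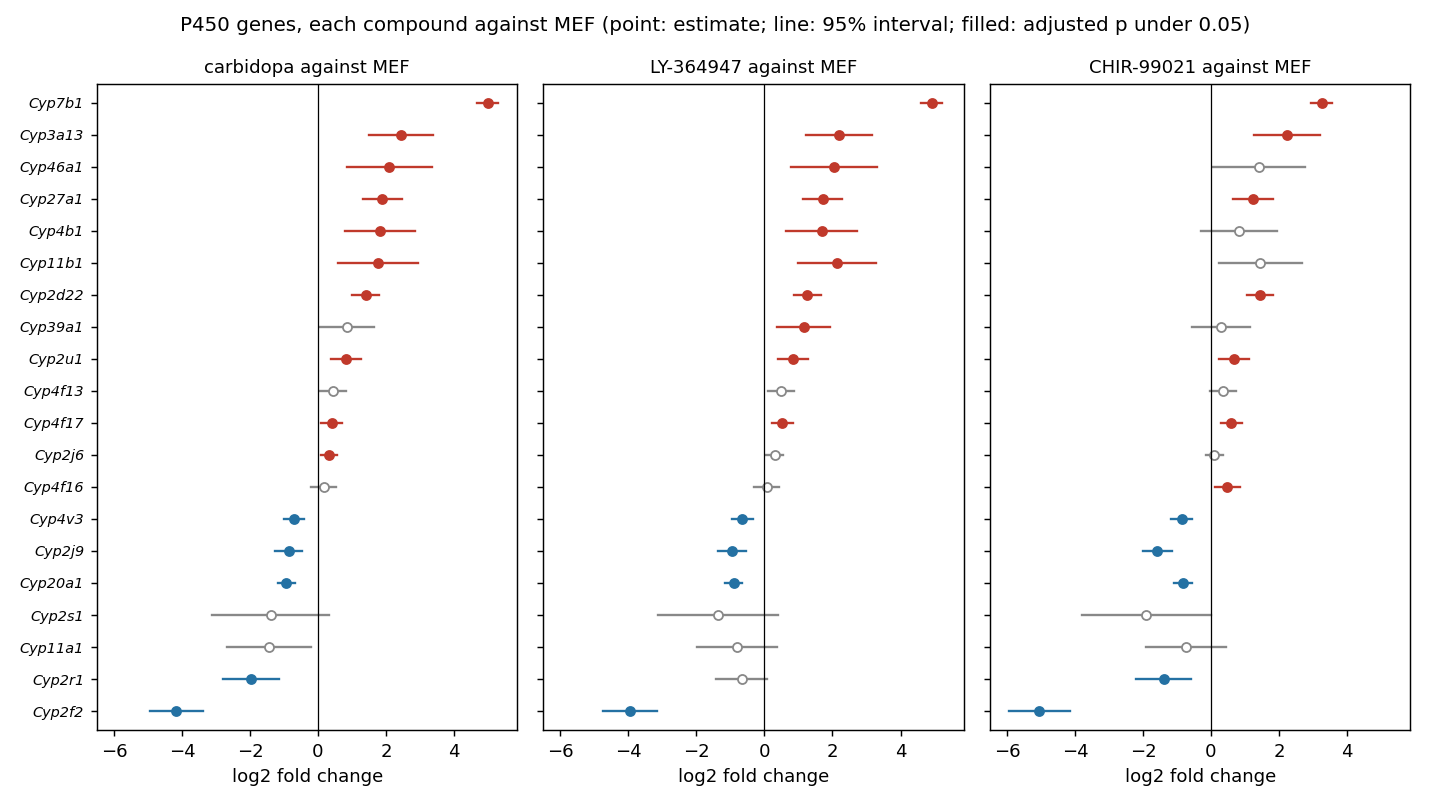
Log2 fold change (horizontal axis) of the 20 tested P450 genes (vertical axis) with each compound against MEFs. Points are edgeR estimates and lines their 95% intervals, filled red for higher and filled blue for lower at an adjusted p under 0.05, open where the test was not passed. Cyp7b1 lies farthest to the right and Cyp2f2 farthest to the left in all 3 panels.

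Cyp7b1 showed the largest rise of the 20 genes with each compound. It encodes the oxysterol hydroxylase of the alternative pathway to bile acids and lies on chromosome 3 from 18071950 to 18243338 on the minus strand of mm10, as annotated by GENCODE M21, the source of all gene positions here. The level was 4.98 and 6.07 CPM in the MEF libraries, 180.5 and 174 under carbidopa, 175 and 159.8 under LY-364947, and 50.3 and 55.4 under CHIR-99021. No treated library came near the MEF libraries, and both CHIR-99021 libraries lay between MEFs and the other treatments. The log2 fold change against MEFs was 5.00 ± 0.14 (SE) under carbidopa (edgeR adjusted p = 4.09e-09), 4.92 ± 0.14 under LY-364947 (edgeR adjusted p = 4.54e-09) and 3.25 ± 0.14 under CHIR-99021 (edgeR adjusted p = 5.56e-08), or 31.9-fold, 30.2-fold and 9.52-fold. Its exons share no word of 75 bases with another gene, and every alternative kept the 3 calls.

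The rise of Cyp7b1 changed the makeup of the whole family. Summed over the 26 genes, the level was 202 and 206 CPM in MEFs, 374 and 353 under carbidopa, 360.0 and 346 under LY-364947, and 223 and 237 under CHIR-99021. Cyp7b1 made up 2.47% and 2.94% of that sum in MEFs, 48.3% and 49.3% under carbidopa, 48.7% and 46.1% under LY-364947, and 22.6% and 23.4% under CHIR-99021. Without it, the sums were 199 ± 2.68 in MEFs (SD, n = 2), 186 ± 10.3 under carbidopa, 186 ± 1.45 under LY-364947 and 177 ± 6.18 under CHIR-99021. The increase in the summed level of the 26 genes was therefore carried by 1 gene, and the sum of the other 25 lay between 173 and 200.4 in every library.

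**Figure D2:**
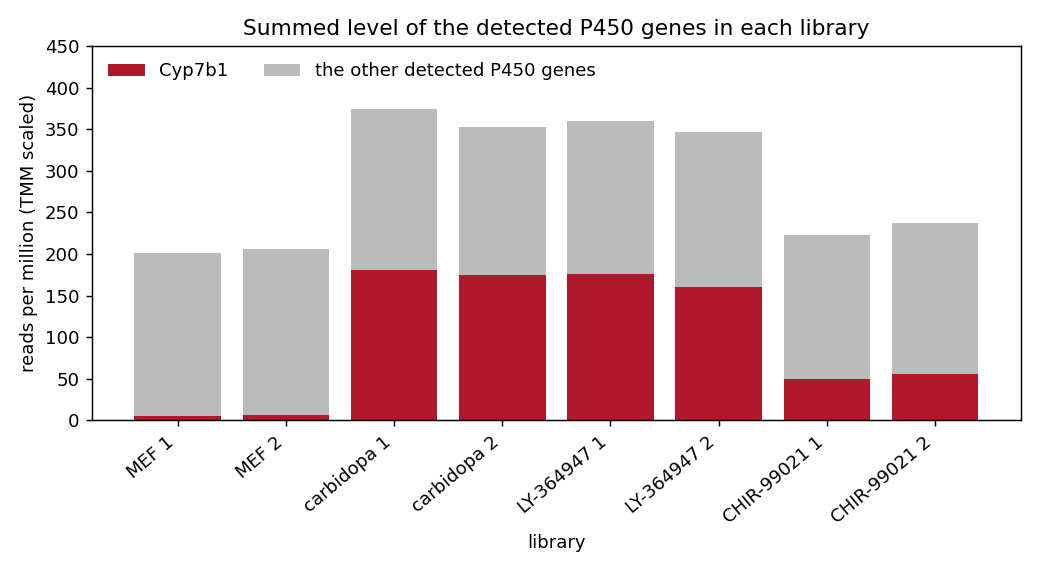
Summed level of the 26 detected P450 genes in each of the 8 libraries (bars, in CPM), divided into Cyp7b1 (red) and the other 25 genes (grey). The grey part stays between 173 and 200.4 while the red part rises from 4.98 and 6.07 in MEFs to between 50.3 and 180.5 in treated libraries.

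Levels of different genes were compared per kilobase of exon. In MEFs the order was led by Cyp20a1 at 26.2 ± 0.171 CPM per kilobase (SD, n = 2), then Cyp2j6 at 10.4 ± 0.824 and Cyp2f2 at 6.68 ± 1.82, which did not separate from Cyp4v3 at 5.75 ± 0.207 and Cyp4f16 at 5.33 ± 0.755. Cyp7b1 was the 8th gene of this order at 2.55 ± 0.354 (the 9th by the longest transcript), next to Cyp2j9 at 2.64 ± 0.145. In treated cells Cyp7b1 came first, at 81.9 ± 2.05 under carbidopa, 77.4 ± 5.11 under LY-364947 and 24.4 ± 1.65 under CHIR-99021. Cyp20a1 and Cyp2j6 followed, at 13.8 and 13.0 under carbidopa, 14.0 and 12.8 under LY-364947, and 14.8 and 11.1 under CHIR-99021. Cyp2f2 moved from the 3rd place in MEFs to places 16, 17 and 19.

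Of the 4 sterol genes, Cyp7b1 included, 3 were called higher under carbidopa, 4 under LY-364947 and 2 under CHIR-99021, and none lower. The first 2 counts include Cyp46a1, which had to be higher after treatment to pass the filter on low counts. Beside these counts, 37.7%, 31.0% and 38.8% of all tested genes were called in that order. Cyp27a1 encodes the mitochondrial sterol hydroxylase that starts the alternative bile acid pathway (chromosome 1, 74713574 to 74737892, plus strand). It was at 3.42 and 2.32 CPM in MEFs, 12.7 and 8.58 under carbidopa, 8.81 and 9.96 under LY-364947, and 6.45 and 7.08 under CHIR-99021. All 6 treated libraries lay above both MEF libraries. The log2 fold change was 1.90 ± 0.25 under carbidopa (edgeR adjusted p = 0.000236), 1.72 ± 0.26 under LY-364947 (edgeR adjusted p = 0.000536) and 1.25 ± 0.26 under CHIR-99021 (edgeR adjusted p = 0.00403). The call under CHIR-99021 was narrowly lost without MEF replicate 2, at 0.98 (edgeR adjusted p = 0.0526). Both Cyp7b1 and Cyp27a1, the enzymes that act one after the other on the oxysterol route, were thus called higher with every compound.

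Cyp46a1 and Cyp39a1 act on side-chain oxysterols and had few reads. The direction of Cyp46a1 supports nothing by itself, since only higher treated libraries could bring it past the filter. Cyp46a1, a cholesterol hydroxylase best known from neurons, held 5 and 4 reads in MEFs, 33 and 25 under carbidopa, 29 and 19 under LY-364947, and 20 and 9 under CHIR-99021. It rose by a log2 fold change of 2.10 ± 0.56 under carbidopa (edgeR adjusted p = 0.0148) and 2.05 ± 0.57 under LY-364947 (edgeR adjusted p = 0.0197), and gave 1.41 ± 0.61 under CHIR-99021 (edgeR adjusted p = 0.0924). Cyp39a1, which hydroxylates the product of Cyp46a1, was at 1.56 and 0.774 CPM in MEFs, 2.21 and 1.96 under carbidopa, 2.30 and 2.82 under LY-364947, and 1.38 and 1.45 under CHIR-99021. It passed under LY-364947 alone, at 1.15 ± 0.36 (edgeR adjusted p = 0.0321), and gave 0.85 ± 0.36 under carbidopa (edgeR adjusted p = 0.0850) and 0.30 ± 0.38 under CHIR-99021 (edgeR adjusted p = 0.573). That does not show that LY-364947 differed from the other compounds, since no comparison between compounds called either gene. Without MEF replicate 1, MEF replicate 2 or the first carbidopa library, Cyp46a1 missed the call under carbidopa at 1.84 to 2.37, and without either MEF library or the first LY-364947 library it missed the call under LY-364947 at 1.68 to 2.32. Cyp39a1 missed its call without MEF replicate 2 or either LY-364947 library, at 0.71 to 1.29, and by DESeq2, and without MEF replicate 1 it passed under carbidopa at 1.42, against 0.41 without MEF replicate 2. Without CHIR-99021 replicate 2, Cyp46a1 passed under CHIR-99021, at 1.87, and without replicate 1 of that group it was 0.74 (edgeR adjusted p = 0.519).

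**Figure D3:**
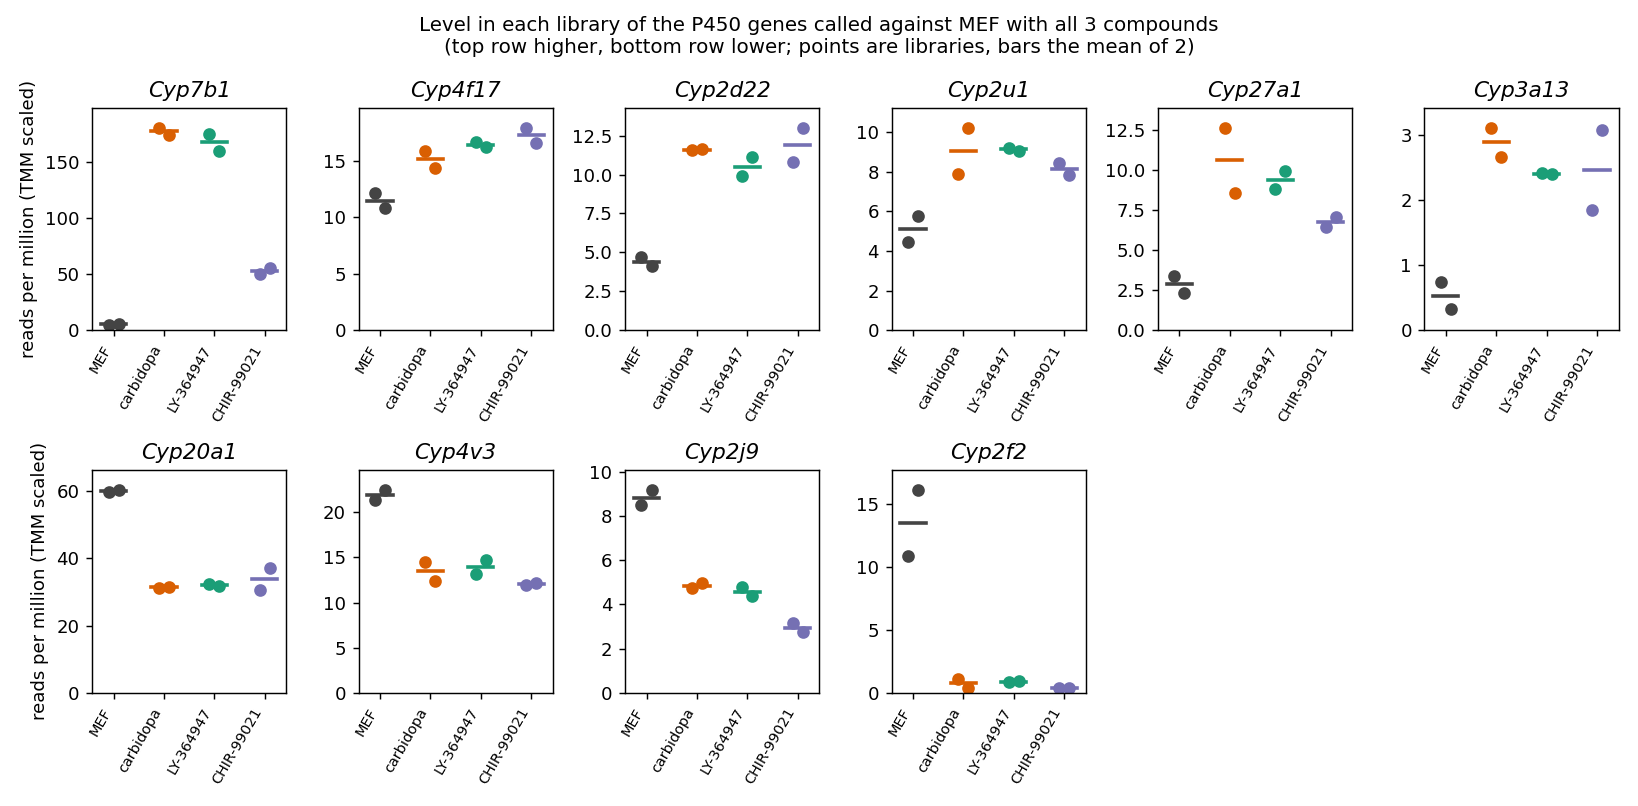
Level in each library (points, CPM on the vertical axis, from 0) of the 10 P450 genes called in 1 direction with all 3 compounds, with the mean of the 2 libraries of a group as a line. In the top row (Cyp7b1, Cyp4f17, Cyp2d22, Cyp2u1, Cyp27a1 and Cyp3a13) every treated library lies above both MEF libraries, and in the bottom row (Cyp20a1, Cyp4v3, Cyp2j9 and Cyp2f2) every treated library lies below them.

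The fatty acid and eicosanoid genes moved in both directions. Beside their counts, 37.7%, 31.0% and 38.8% of all tested genes were called under carbidopa, LY-364947 and CHIR-99021. Of the 8 tested in this group, 4 rose and 2 fell under carbidopa, 3 rose and 2 fell under LY-364947, and 3 rose and 2 fell under CHIR-99021. The 2 that fell were the same each time, Cyp2j9 and Cyp4v3. Cyp2j9 is an epoxygenase of arachidonic acid known from the brain (chromosome 4, 96568429 to 96591578, minus strand). It was at 8.48 and 9.16 CPM in MEFs, 4.75 and 4.94 under carbidopa, 4.77 and 4.37 under LY-364947, and 3.17 and 2.73 under CHIR-99021. The 3 treatments lay below MEFs without overlap, and CHIR-99021 lay below the other 2. Against MEFs it fell with each compound, at a log2 fold change of -0.86 ± 0.18 under carbidopa (edgeR adjusted p = 0.00389), -0.95 ± 0.18 under LY-364947 (edgeR adjusted p = 0.00255) and -1.58 ± 0.19 under CHIR-99021 (edgeR adjusted p = 0.000110).

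Cyp2j6, its neighbour 14.767 kb away on the same strand and also an epoxygenase, did not follow Cyp2j9. Its level was 39.6 and 35.4 CPM in MEFs, 48.3 and 45.7 under carbidopa, 48.4 and 44.0 under LY-364947, and 39.0 and 41.1 under CHIR-99021. It passed the test under carbidopa, at a log2 fold change of 0.33 ± 0.11 (edgeR adjusted p = 0.0377), and gave 0.30 ± 0.11 under LY-364947 (edgeR adjusted p = 0.0604) and 0.10 ± 0.11 under CHIR-99021 (edgeR adjusted p = 0.523). The carbidopa call was lost by DESeq2, with other size factors, without a filter, in the 2 groups alone, and without any 1 of 7 libraries, the exception being the second carbidopa library (log2 fold change 0.24 to 0.41, edgeR adjusted p up to 0.280). The call under LY-364947 was gained without either carbidopa library, at 0.30, and in the 2 groups alone. The genes share no word of 75 bases with each other or with any other gene.

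Cyp4v3 encodes a fatty acid hydroxylase whose human counterpart is mutated in an inherited retinal disease (chromosome 8, 45304944 to 45333216, minus strand). It was at 21.3 and 22.5 CPM in MEFs, 14.5 and 12.4 under carbidopa, 13.1 and 14.8 under LY-364947, and 12.0 and 12.1 under CHIR-99021. All treated libraries lay below both MEF libraries. The gene fell with each compound, at a log2 fold change of -0.70 ± 0.14 under carbidopa (edgeR adjusted p = 0.00272), -0.65 ± 0.14 under LY-364947 (edgeR adjusted p = 0.00473) and -0.86 ± 0.14 under CHIR-99021 (edgeR adjusted p = 0.000809). The LY-364947 call was lost without the first LY-364947 library, at -0.57 (edgeR adjusted p = 0.0530). The overlapping gene Gm45753, which shares 6.40% of the words of Cyp4v3, held 3 reads in total.

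Cyp2u1, which hydroxylates long-chain fatty acids, and Cyp4f17, of the family that hydroxylates fatty acids and leukotrienes at the end of the chain, rose with every compound. Cyp2u1 was at 4.46 and 5.74 CPM in MEFs, 7.86 and 10.2 under carbidopa, 9.21 and 9.05 under LY-364947, and 8.46 and 7.83 under CHIR-99021. The log2 fold change was 0.82 ± 0.20 under carbidopa (edgeR adjusted p = 0.00901), 0.83 ± 0.20 under LY-364947 (edgeR adjusted p = 0.00927) and 0.67 ± 0.20 under CHIR-99021 (edgeR adjusted p = 0.0237). Treated libraries of Cyp2u1 lay above both MEF libraries. Cyp4f17 was at 12.1 and 10.8 CPM in MEFs, 15.9 and 14.4 under carbidopa, 16.7 and 16.2 under LY-364947, and 17.9 and 16.6 under CHIR-99021. Its log2 fold change was 0.40 ± 0.14 (edgeR adjusted p = 0.0408), 0.52 ± 0.14 (edgeR adjusted p = 0.0149) and 0.59 ± 0.14 (edgeR adjusted p = 0.00653) in that order. Each of these 6 calls was lost without some library. Cyp2u1 was lost without MEF replicate 1 with all 3 compounds (0.65 under carbidopa), without LY-364947 replicate 1 under LY-364947 (0.67 to 0.82 over its lost fits), and without either CHIR-99021 library under CHIR-99021 (0.51 to 0.73 over its lost fits), the last by DESeq2 too. Cyp4f17 was lost under carbidopa without any 1 of 7 libraries, the exception being carbidopa replicate 2 (0.31 to 0.49), under LY-364947 without MEF replicate 2 or either LY-364947 library (0.44 to 0.54), and under CHIR-99021 without MEF replicate 2 or CHIR-99021 replicate 1 (0.50 to 0.54). The carbidopa call of Cyp4f17 was also lost by DESeq2, with other size factors, without a filter and in the 2 groups alone. An antisense gene, 4930534D22Rik, overlaps Cyp2u1 by 548 bases and held 12 reads.

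Cyp4f16 and Cyp4f13 lie beyond Cyp4f17 on chromosome 17, Cyp4f16 at a distance of 6.414 kb and Cyp4f13 a further 372.889 kb away. Cyp4f16 was at 14.7 and 18.0 CPM in MEFs, 21.3 and 15.7 under carbidopa, 17.3 and 17.0 under LY-364947, and 23.1 and 22.7 under CHIR-99021. It passed under CHIR-99021, at a log2 fold change of 0.48 ± 0.17 (edgeR adjusted p = 0.0405), and gave 0.18 ± 0.16 under carbidopa (edgeR adjusted p = 0.427) and 0.07 ± 0.17 under LY-364947 (edgeR adjusted p = 0.802). MEFs overlapped the carbidopa and LY-364947 libraries and lay below the CHIR-99021 libraries. That call was lost by DESeq2 and without any 1 of the 6 MEF, LY-364947 and CHIR-99021 libraries (0.35 to 0.63), and without carbidopa replicate 2 the gene passed under carbidopa at 0.38, against -0.062 without replicate 1. Cyp4f16 shares 9.35% of its words with Cyp4f37, which held no read, and 0.779% with Cyp4f17. Cyp4f13 ranged from 7.44 to 8.52 CPM in MEFs and from 9.34 to 12.1 in treated libraries, and passed no test. Its log2 fold changes were 0.44 ± 0.17, 0.49 ± 0.17 and 0.36 ± 0.17 (edgeR adjusted p = 0.0602, 0.0504 and 0.120), and the second of these passed without either carbidopa library, at 0.49, and in the 2 groups alone.

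Cyp4b1 metabolizes fatty acids and small foreign compounds, mostly in the lung. It held 9 and 15 reads in MEFs, 73 and 53 under carbidopa, 29 and 69 under LY-364947, and 21 and 30 under CHIR-99021. The log2 fold change was 1.83 ± 0.46 under carbidopa (edgeR adjusted p = 0.0112), 1.68 ± 0.47 under LY-364947 (edgeR adjusted p = 0.0204) and 0.83 ± 0.50 under CHIR-99021 (edgeR adjusted p = 0.220). The LY-364947 libraries stood 29 against 69 reads apart, and without the second of them the log2 fold change was 0.97 and the call was lost, as it was without either MEF library (up to 1.98). With carbidopa it was lost without MEF replicate 1, at 1.60. Its neighbour Cyp4a14, a fatty acid hydroxylase of liver at 128.582 kb, did not pass the filter and held 1 and 0 reads in MEFs, 6 and 8 under carbidopa, 6 and 7 under LY-364947, and 9 and 10 under CHIR-99021. A count of 0 allows up to 3 reads, and the MEF counts are within that limit. Cyp4a14 passed the filter in 7 of the 8 fits that left out 1 library, and was called higher in 6 of them under CHIR-99021 (edgeR adjusted p = 0.0108 to 0.0464, the exception being the fit without MEF replicate 2), in 2 under LY-364947, those without a carbidopa library, and in none under carbidopa. It was also called under CHIR-99021 without a filter. With a library left out, Cyp4a14 could pass the filter only through treated libraries, so the direction of those calls supports nothing by itself.

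Among the genes that act on foreign compounds, Cyp2f2 showed the largest fall of all members. It turns naphthalene into toxic products and is known from club cells of the lung (chromosome 7, 27119909 to 27133660, plus strand). The level was 10.9 and 16.1 CPM in MEFs, 1.08 and 0.420 under carbidopa, 0.842 and 0.905 under LY-364947, and 0.403 and 0.406 under CHIR-99021, from 147 and 250 reads in MEFs and 7 to 23 reads in each treated library. Every treated library lay far below both MEF libraries. The gene fell with each compound, at a log2 fold change of -4.16 ± 0.36 under carbidopa (edgeR adjusted p = 9.20e-06), -3.94 ± 0.36 under LY-364947 (edgeR adjusted p = 1.37e-05) and -5.04 ± 0.40 under CHIR-99021 (edgeR adjusted p = 5.74e-06), or 17.9-fold, 15.4-fold and 33.0-fold. Without carbidopa replicate 1 the carbidopa value was -4.99. The antisense gene Gm15883 overlaps it by 274 bases and held 3 reads.

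Cyp2d22 and Cyp3a13 belong to the subfamilies that metabolize many drugs, and both rose with every compound. Cyp2d22 was at 4.68 and 4.13 CPM in MEFs, 11.6 in both carbidopa libraries, 9.88 and 11.1 under LY-364947, and 10.8 and 13.0 under CHIR-99021. The log2 fold change was 1.40 ± 0.17 under carbidopa (edgeR adjusted p = 0.000145), 1.26 ± 0.18 under LY-364947 (edgeR adjusted p = 0.000344) and 1.44 ± 0.18 under CHIR-99021 (edgeR adjusted p = 0.000120). Treated libraries lay above MEFs without overlap. Cyp3a13, a member expressed in liver and intestine, held 10 and 5 reads in MEFs, 66 and 57 under carbidopa, 43 and 45 under LY-364947, and 32 and 53 under CHIR-99021. It rose by 2.45 ± 0.42 on the log2 scale (edgeR adjusted p = 0.00130), by 2.19 ± 0.44 (edgeR adjusted p = 0.00327) and by 2.22 ± 0.44 (edgeR adjusted p = 0.00266) in that order. The size rests in part on MEF replicate 1, without which the values were 3.13, 2.87 and 2.91. Cyp3a13 could not have passed the filter on low counts on its MEF libraries alone, so its direction supports nothing by itself.

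Cyp2s1, an epithelial member, passed no test and varied within groups. It held 21 and 20 reads in MEFs, 2 and 21 under carbidopa, 4 and 16 under LY-364947, and 4 and 9 under CHIR-99021. On the scaled level every treated library lay below both MEF libraries, but those of carbidopa were far apart, at 0.0941 and 0.980 CPM. Log2 fold changes were -1.39 ± 0.78, -1.38 ± 0.79 and -1.90 ± 0.85 (edgeR adjusted p = 0.183, 0.223 and 0.102). Without carbidopa replicate 2 the carbidopa value was -3.82 and passed, and without replicate 1 it was -0.53 (edgeR adjusted p = 0.571). The LY-364947 value was -0.73 without replicate 1 of that group and -2.63 without replicate 2, with no call, and without either carbidopa library the CHIR-99021 value passed at -1.89. Without a filter Cyp2s1 was called lower with each compound, and in the 2 groups alone under LY-364947 and CHIR-99021. The last 3 genes of the group did not pass the filter. Cyp2a4, which hydroxylates testosterone in liver, held 3 and 1 reads in MEFs, 5 and 3 under carbidopa, 8 and 6 under LY-364947, and 5 and 7 under CHIR-99021, and shares 21.0% of its words with Cyp2a5, which held no read. Cyp2c55 held 3 and 5 reads in MEFs, 1 and 0 under carbidopa, 10 and 3 under LY-364947, and 5 and 7 under CHIR-99021. Cyp2c44 held 3 and 0, 2 and 4, 0 and 3, and 1 and 1 reads in the same order. In refits without 1 library Cyp2c55 could be fitted 7 times and was never called (smallest edgeR adjusted p = 0.0621, under carbidopa), and without a filter none of the 3 was called.

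Cyp20a1 was the most abundant of the 26 members in MEFs per kilobase and fell to nearly the same level with each compound. It lies on chromosome 1 from 60343323 to 60388060 on the plus strand. The level was 59.7 and 60.3 CPM in MEFs, 31.3 and 31.6 under carbidopa, 32.3 and 31.8 under LY-364947, and 30.7 and 37.2 under CHIR-99021. The treated libraries lay below MEFs, and only the second CHIR-99021 library exceeded 32.3. The gene fell with each compound, at a log2 fold change of -0.93 ± 0.11 under carbidopa (edgeR adjusted p = 0.000125), -0.91 ± 0.11 under LY-364947 (edgeR adjusted p = 0.000162) and -0.82 ± 0.11 under CHIR-99021 (edgeR adjusted p = 0.000293). These calls held under every alternative. Its exons share 3.41% of their words with other genes, most with Syt11 (1.92%).

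The vitamin D genes were low. Cyp2r1 encodes the hydroxylase that makes the circulating form of vitamin D (chromosome 7, 114549682 to 114562972, minus strand). It held 29 and 35 reads in MEFs, 10 and 14 under carbidopa, 20 and 31 under LY-364947, and 15 and 14 under CHIR-99021, or 2.16 and 2.26 CPM in MEFs, 0.471 and 0.653, 1.12 and 1.65, and 0.864 and 0.812. On the scaled level the treated libraries lay below MEFs, under LY-364947 the nearest to them. The gene fell, at a log2 fold change of -1.96 ± 0.37 under carbidopa (edgeR adjusted p = 0.00234) and -1.39 ± 0.36 under CHIR-99021 (edgeR adjusted p = 0.0123), and gave -0.67 ± 0.34 under LY-364947 (edgeR adjusted p = 0.169). The CHIR-99021 call was lost without either MEF library or either CHIR-99021 library (-1.43 to -1.34, edgeR adjusted p up to 0.0759). Cyp27b1, which makes the active hormone, held 3 and 1 reads in MEFs, 3 and 10 under carbidopa, 2 and 1 under LY-364947, and 2 and 7 under CHIR-99021. Cyp24a1, which degrades it, was the member with the fewest reads, with 3 and 2, 1 and 3, 2 and 1, and 0 and 0 in the same order. The neighbouring Pfdn4, with 2795 reads, overlaps Cyp24a1 by 83 bases on the other strand, and whether counting used strand was not given in the sources used here.

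Both steroid hormone genes were at the lower end of the tested members. Cyp11b1, which completes glucocorticoid synthesis in the adrenal cortex, held 6 and 3 reads in MEFs, 28 and 18 under carbidopa, 26 and 25 under LY-364947, and 13 and 17 under CHIR-99021. It rose by 1.76 ± 0.53 on the log2 scale under carbidopa (edgeR adjusted p = 0.0244) and by 2.13 ± 0.52 under LY-364947 (edgeR adjusted p = 0.0102), and gave 1.45 ± 0.55 under CHIR-99021 (edgeR adjusted p = 0.0610). Treated libraries held more reads than MEFs throughout, and Cyp11b1 passed the filter on low counts only through them. The carbidopa call was lost without MEF replicate 2 or carbidopa replicate 1 (1.25 to 1.41), by DESeq2 and in the 2 groups alone, and the LY-364947 call without MEF replicate 2 or LY-364947 replicate 1 (1.63 to 2.06), while without MEF replicate 1 the values were 2.44 and 2.80. Without carbidopa replicate 2 the CHIR-99021 value passed, at 1.46, as it did without a filter and in the 2 groups alone. Cyp11b1 shares 7.15% of its words with Cyp11b2 and 6.83% with Gml2, which held 0 and 1 reads. Cyp11a1, which cleaves the side chain of cholesterol, held 14 reads in each MEF library and 5 to 14 in treated libraries, and passed no test, with log2 fold changes of -1.45 ± 0.55, -0.82 ± 0.53 and -0.74 ± 0.53 (edgeR adjusted p = 0.0632, 0.281 and 0.298). Without CHIR-99021 replicate 1 its CHIR-99021 value was -1.46 and without replicate 2 it was -0.26, neither called.

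The compounds were then compared with each other at the same dose, in 3 pairs, with p-values adjusted over all tested genes within each pair. CHIR-99021 differed from carbidopa in 2 of the 20 genes, both lower, where 14.7% of all tested genes were called, 6.62% higher and 8.08% lower. CHIR-99021 differed from LY-364947 in 1 gene, lower, where the shares were 14.1%, 6.45% and 7.69%. LY-364947 and carbidopa differed in none of the 20 by edgeR or DESeq2, where 0.0132% of all tested genes were called, and 1 gene had an unadjusted p under 0.05. At that unadjusted threshold the first 2 pairs gave 4 genes each. The median log2 difference of the 20 genes was -0.23, -0.34 and 0.01 in that order, beside medians between -0.01 and 0.01 over all tested genes.

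Cyp7b1 was the only member called lower under CHIR-99021 than under each of the other compounds. CHIR-99021 was below carbidopa by a log2 difference of -1.75 ± 0.11 (95% interval -1.99 to -1.50, edgeR adjusted p = 1.17e-05) and below LY-364947 by -1.66 ± 0.11 (95% interval -1.91 to -1.42, edgeR adjusted p = 1.78e-05), or 3.36-fold and 3.17-fold. Both calls held under every alternative. LY-364947 minus carbidopa was -0.08 (95% interval -0.32 to 0.16, edgeR adjusted p = 0.751), so the interval leaves room for LY-364947 to be lower or higher than carbidopa within it. Of the 13 tested macrophage markers, 12 were also lower under CHIR-99021 than with either other compound. Against MEFs these markers fell while Cyp7b1 rose. Whether they are linked to Cyp7b1 was not tested.

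The second call was Cyp2j9, at -0.72 ± 0.19 for CHIR-99021 against carbidopa (edgeR adjusted p = 0.0338), beside -0.63 ± 0.20 against LY-364947 (edgeR adjusted p = 0.0603). It was lost by DESeq2, with a replicate block, in the 2 groups alone, and without any 1 of the 6 MEF, LY-364947 and CHIR-99021 libraries (-0.83 to -0.61, edgeR adjusted p up to 0.176), and without either carbidopa library the difference from LY-364947 passed, at -0.63. Cyp27a1 was lower under CHIR-99021 than under carbidopa by a difference of -0.65 (95% interval -1.15 to -0.15) that did not pass (edgeR adjusted p = 0.0820), and without carbidopa replicate 2 it was -0.90 and passed (edgeR adjusted p = 0.00537), against -0.34 without replicate 1. Cyp4f16 was higher under CHIR-99021 than under LY-364947 by 0.42 (95% interval 0.06 to 0.78, edgeR adjusted p = 0.120). It passed without either carbidopa library, at 0.42, and in the 2 groups alone. Against carbidopa it was 0.31, and 0.55 with a call without carbidopa replicate 1, but 0.11 without replicate 2.

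Between LY-364947 and carbidopa, Cyp2r1 had the smallest p of the members, under LY-364947 higher by 1.30 (95% interval 0.45 to 2.15). That difference did not pass (edgeR adjusted p = 0.519), although it did without carbidopa replicate 2, at 1.55 (edgeR adjusted p = 0.0447), and ranged from 0.99 to 1.55 over the libraries left out. Over the 20 genes, intervals of a single difference were as narrow as -0.26 to 0.21 for Cyp2j6 and as wide as -1.88 to 1.91 for Cyp2s1.

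**Figure D4:**
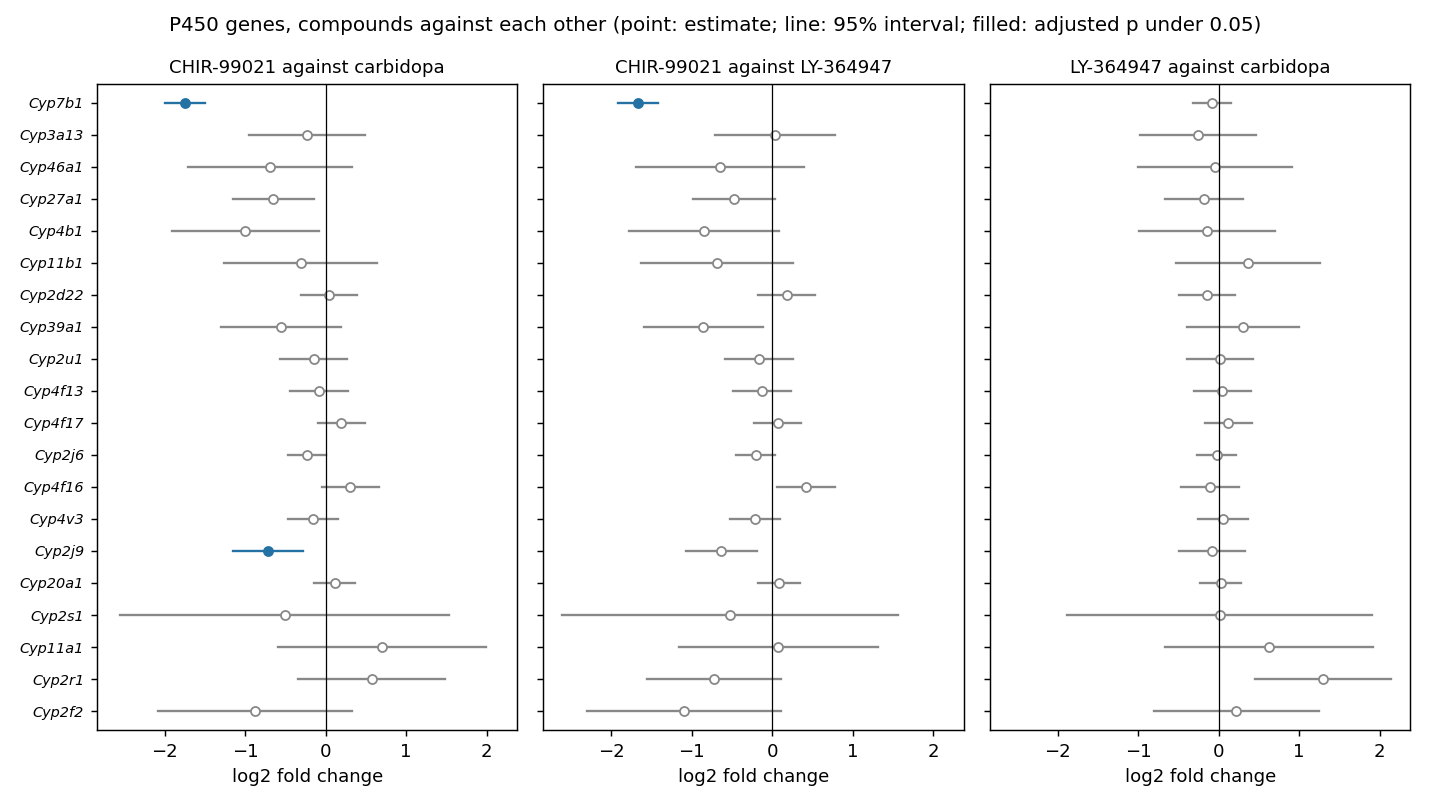
Log2 fold change (horizontal axis) of the 20 tested P450 genes (vertical axis) between compounds at 10 µM. Points are edgeR estimates and lines their 95% intervals, filled blue for lower at an adjusted p under 0.05 and open where the test was not passed. Cyp7b1 is filled for CHIR-99021 against carbidopa and against LY-364947, Cyp2j9 for CHIR-99021 against carbidopa only, and no gene is filled for LY-364947 against carbidopa.

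P450 enzymes need electrons, and the gene of their common donor rose. Por, the NADPH reductase of the endoplasmic reticulum, was at 87.5 and 83.8 CPM in MEFs, 503 and 353 under carbidopa, 358 and 381 under LY-364947, and 426 and 365 under CHIR-99021. All treated libraries lay far above both MEF libraries. The log2 fold change was 2.32 ± 0.16 under carbidopa (edgeR adjusted p = 2.15e-06), 2.11 ± 0.16 under LY-364947 (edgeR adjusted p = 4.23e-06) and 2.21 ± 0.16 under CHIR-99021 (edgeR adjusted p = 3.03e-06), and no difference between compounds passed. Without carbidopa replicate 2, Por was lower under LY-364947 (-0.44) and under CHIR-99021 (-0.34) than under carbidopa, while without replicate 1 these differences were 0.065 and 0.17 and not called. Of the 9 donors and membrane partners, 4 rose and 2 fell under carbidopa, and 2 rose and 2 fell with each of the others. The median log2 fold change was 0.43, -0.03 and 0.01, and 37.7%, 31.0% and 38.8% of all tested genes were called. Under carbidopa the genes that rose were Por, Pgrmc1, Cyb5a and Fdx1, and 2 of them were still called without carbidopa replicate 1, where Cyb5a and Fdx1 were lost, 5 without carbidopa replicate 2, and Por alone without either MEF library. Leaving out 1 library, 1 to 3 rose under LY-364947, where 2 fell each time, and 1 to 3 rose and 1 to 3 fell under CHIR-99021, with Pgrmc1 lost for both compounds without any 1 of the 6 MEF, LY-364947 and CHIR-99021 libraries. Cyb5r3, which reduces cytochrome b5, fell at log2 fold changes of -0.53, -0.68 and -0.80 (edgeR adjusted p = 0.00263, 0.000567 and 0.000169), and the haem-binding membrane protein gene Pgrmc2 at -0.57, -0.68 and -0.53 (edgeR adjusted p = 0.00293, 0.00102 and 0.00435), the last value being -0.44 and not called without MEF replicate 2.

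**Figure D5:**
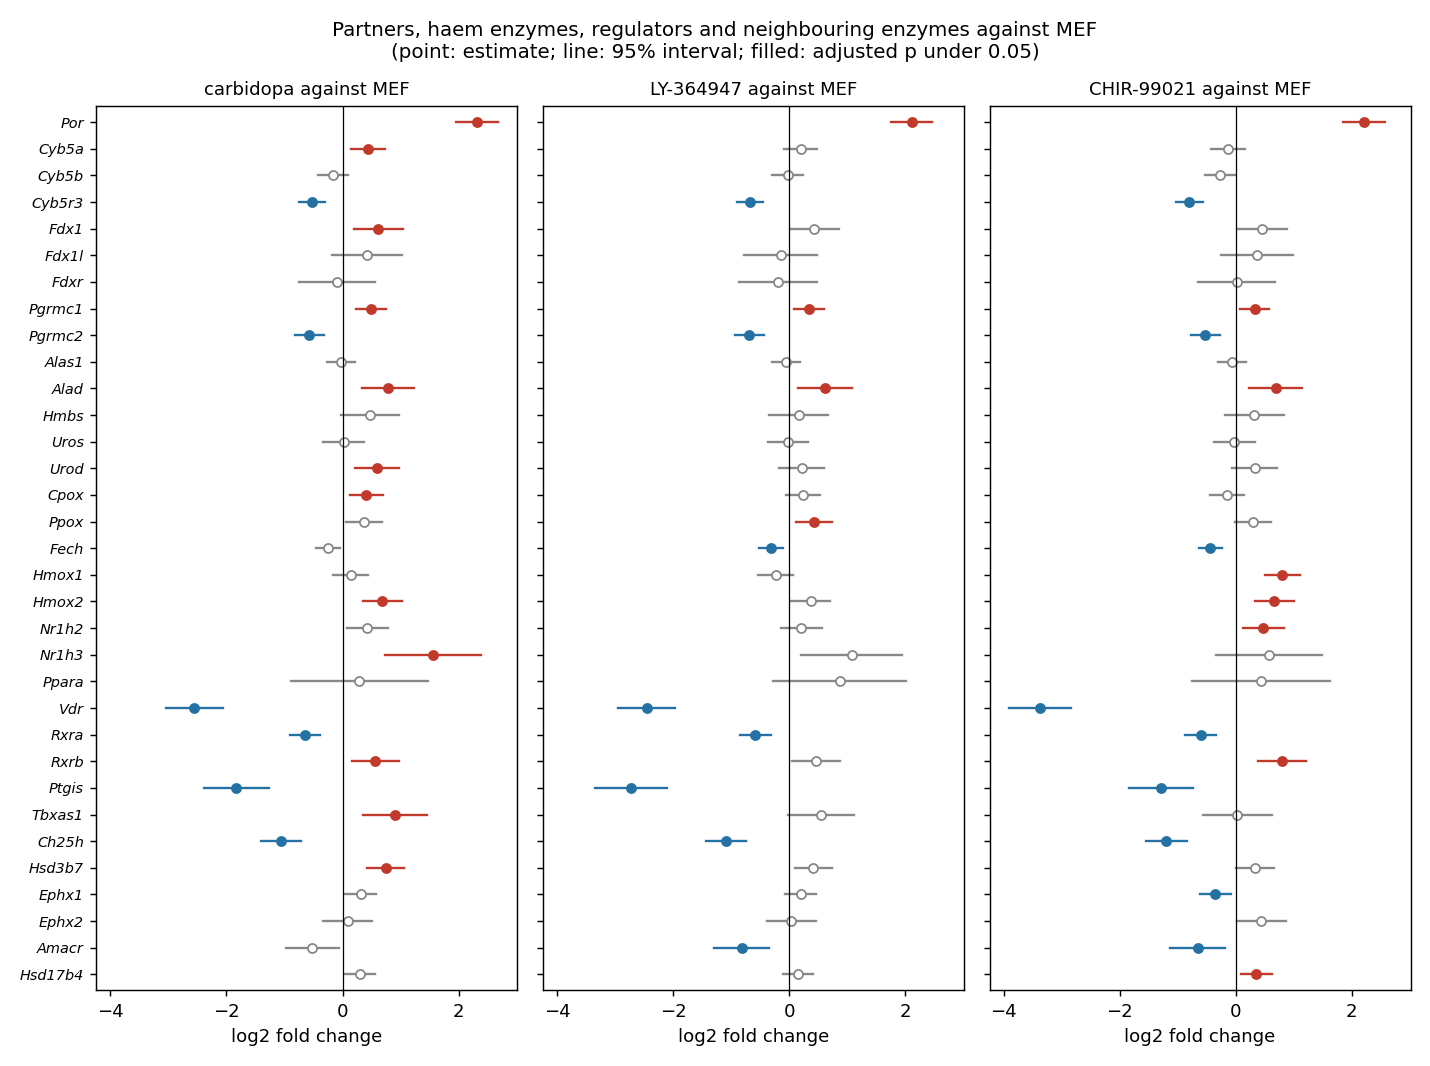
Log2 fold change against MEFs (horizontal axis) with each compound for the tested genes of the electron donors, haem enzymes, regulators, P450-fold enzymes and neighbouring enzymes (vertical axis). Points are edgeR estimates and lines their 95% intervals, filled red for higher and filled blue for lower at an adjusted p under 0.05. Por lies at 2.32, 2.11 and 2.21, and Vdr at -2.56, -2.45 and -3.37.

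For haem synthesis and breakdown 10 genes were tested, beside 37.7%, 31.0% and 38.8% called over all tested genes. Median log2 fold changes of the 10 were 0.39, 0.19 and 0.31. Among them 4 rose under carbidopa, 2 rose and 1 fell under LY-364947, and 3 rose and 1 fell under CHIR-99021. Under carbidopa these were Hmox2, Cpox, Alad and Urod, of which 1 was still called without carbidopa replicate 1, where Cpox, Alad and Urod were lost, while 7 rose and 1 fell without carbidopa replicate 2, and 1 rose without either MEF library. Leaving out 1 library, 0 to 3 rose and 0 to 2 fell under LY-364947, and 1 to 3 rose and 1 fell under CHIR-99021. Hmox1, the inducible haem oxygenase, rose under CHIR-99021 by 0.81 (edgeR adjusted p = 0.000978), against 0.14 under carbidopa and -0.23 under LY-364947, and was higher under CHIR-99021 than under carbidopa by 0.67 and than under LY-364947 by 1.04 (edgeR adjusted p = 0.00858 and 0.000855). The difference from carbidopa was 0.55 and not called without CHIR-99021 replicate 1, and without carbidopa replicate 2 Hmox1 also passed under carbidopa at 0.31, against -0.061 without replicate 1, while without either carbidopa library it passed under LY-364947 at -0.23. Hmox2, the constitutive haem oxygenase, rose by 0.68 under carbidopa and 0.66 under CHIR-99021 (edgeR adjusted p = 0.00589 and 0.00633) and gave 0.37 under LY-364947. Its carbidopa call was lost without MEF replicate 2 (0.57) and its CHIR-99021 call without MEF replicate 2 or CHIR-99021 replicate 1 (0.55), while the LY-364947 value passed without either carbidopa library. Fech, which inserts the iron, fell, at -0.31 under LY-364947 and -0.44 under CHIR-99021 (edgeR adjusted p = 0.0266 and 0.00376) and gave -0.25 under carbidopa. The LY-364947 call of Fech was lost without any 1 of the 6 MEF, LY-364947 and CHIR-99021 libraries (-0.34 to -0.28), and the carbidopa value passed without carbidopa replicate 2, at -0.26.

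Counts of regulators also stand beside 37.7%, 31.0% and 38.8% called over all tested genes. Among 10 receptors and factors that control P450 genes, 6 were tested. Of these 2 rose and 2 fell under carbidopa, 2 fell under LY-364947, and 2 rose and 2 fell under CHIR-99021, with median log2 fold changes of 0.36, 0.33 and 0.45, so that the median under LY-364947 was above 0 although the genes called there fell. Leaving out 1 library, 1 to 3 rose under carbidopa, 0 to 3 under LY-364947 and 0 to 2 under CHIR-99021, and 1 or 2 fell. Vdr, the vitamin D receptor, which induces Cyp24a1, was at 20.8 and 23.0 CPM in MEFs, 3.20 and 4.25 under carbidopa, 4.77 and 3.25 under LY-364947, and 2.36 and 1.86 under CHIR-99021. It fell with each compound, at a log2 fold change of -2.56 ± 0.22 under carbidopa (edgeR adjusted p = 9.80e-06), -2.45 ± 0.22 under LY-364947 (edgeR adjusted p = 1.39e-05) and -3.37 ± 0.24 under CHIR-99021 (edgeR adjusted p = 2.50e-06). Vdr and Cyp2r1 were thus lower together under carbidopa and CHIR-99021. Rxra, the partner of many of these receptors, fell, at -0.65, -0.58 and -0.60 (edgeR adjusted p = 0.00180, 0.00373 and 0.00273), with -0.50 and no call for LY-364947 without MEF replicate 1. Rxrb rose by 0.56 under carbidopa and by 0.80 under CHIR-99021 (edgeR adjusted p = 0.0349 and 0.00632) and gave 0.46 under LY-364947, which passed without either carbidopa library. Its calls were lost without MEF replicate 2, carbidopa replicate 1 or either LY-364947 library for carbidopa (0.38 to 0.56), and without MEF replicate 2 or CHIR-99021 replicate 1 for CHIR-99021 (0.58 to 0.61). The xenobiotic receptor genes Nr1i2 and Nr1i3 and the bile acid receptor gene Nr1h4 had at most 9 reads in a library, and Hnf4a, a factor of the hepatocyte, held 1 and 2 reads in MEFs and 6 to 10 in treated libraries.

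P450 enzymes with other names include Ptgis, prostacyclin synthase, and Tbxas1, thromboxane synthase. Ptgis fell with all compounds, at log2 fold changes of -1.83, -2.73 and -1.29 (edgeR adjusted p = 0.000279, 3.34e-05 and 0.00226), from 9.22 and 8.97 CPM in MEFs to between 1.33 and 4.55. Tbxas1, which macrophages also express, rose by 0.91 under carbidopa (edgeR adjusted p = 0.0162) and gave 0.54 and 0.03 under LY-364947 and CHIR-99021, and the call was lost without MEF replicate 2 (0.73). Over both genes the median was -0.46, -1.09 and -0.63.

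Of 9 enzymes next to P450 genes in their pathways, 6 were tested, beside 37.7%, 31.0% and 38.8% called over all tested genes. Among the 6, 1 rose and 1 fell under carbidopa, 2 fell under LY-364947, and 1 rose and 3 fell under CHIR-99021. Their medians were 0.20, 0.10 and -0.01. Leaving out 1 library, 1 to 3 rose and 1 to 2 fell under carbidopa, 0 to 2 rose and 1 to 2 fell under LY-364947, and 0 to 1 rose and 1 to 3 fell under CHIR-99021. Ch25h makes an oxysterol that Cyp7b1 uses, and it was at 16.3 and 17.9 CPM in MEFs and between 6.74 and 8.49 in treated libraries. It fell, at log2 fold changes of -1.05, -1.09 and -1.20 (edgeR adjusted p = 0.000456, 0.000417 and 0.000208), opposite in direction to Cyp7b1. Hsd3b7, the enzyme after Cyp7b1 on the way to bile acids, rose under carbidopa by 0.75 (edgeR adjusted p = 0.00258) and gave 0.42 under LY-364947 and 0.33 under CHIR-99021, the first of which passed without either carbidopa library. Amacr, which acts on the bile acid side chain, fell, at -0.82 under LY-364947 and -0.66 under CHIR-99021 (edgeR adjusted p = 0.0141 and 0.0314) and gave -0.52 under carbidopa. Its LY-364947 call was lost without MEF replicate 2 or either LY-364947 library (-0.83 to -0.72), its CHIR-99021 call without either MEF library, LY-364947 replicate 2 or either CHIR-99021 library (-0.81 to -0.51), and without carbidopa replicate 1 it passed under carbidopa at -0.81, against -0.28 without replicate 2. The later liver enzymes Slc27a5, Baat and Akr1d1, which complete or conjugate bile acids, held at most 3 reads in a library.

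At the edge of the choice of members, the genes just inside were Cyp24a1 with 12 reads and Cyp2c44 with 14, and those just outside were Cyp2ab1 and Cyp2b19 with 9 each. A minimum of 5 reads would give 29 genes and one of 20 reads would give 24. Cyp4a12b falls outside by the letter at the end of its symbol. It held 28 and 36 reads in MEFs, 16 and 20 under carbidopa, 16 and 12 under LY-364947, and 18 and 33 under CHIR-99021.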

How the data were processed

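RNA-seq was made from 8 libraries in 4 groups of 2, mapped to groups by the treatment in the sample labels. Per the study's methods, reads were aligned to mm10 with STAR (version 2.4.2a per the labels) and counted per gene with featureCounts. The authors deposited raw counts for 50578 gene IDs, of which 50354 are in GENCODE M21 (used here for positions and exon lengths). The annotation release, the strand setting and the treatment time of the sequenced cells are not given in the sources used here (a time is stated for the PCR assays only). The labels and the methods name different library kits.

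Counts were tested with edgeR 4.0.16 in R 4.3.3 (TMM scaling, filterByExpr, quasi-likelihood test, group as the only term, all 8 libraries), with Benjamini-Hochberg adjustment over 15154 genes and a threshold of 0.05. The biological coefficient of variation was 11.0%. Levels are CPM after TMM scaling, per kilobase of merged exons where genes are compared. Mean ± SD is over 2 libraries. Depth limits genes with few reads most. Intervals of a difference are 95%, and the limit for a count of 0 is 3 reads and covers counting error only. Shared words are runs of 75 exon bases found in another gene's exons. The fits were tested on simulated data.

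Alternatives were DESeq2 1.42.0, other size factors (RLE), no filter, at least 10 counts in every library, only the 2 groups compared, a replicate block, each library left out in turn, the longest transcript as length, and other read minimums. Libraries with the same replicate number did not deviate together (r from -0.16 to 0.13). Chi-square tests between the 2 libraries of each group found neither to be a copy of the other. Libraries of different groups were not compared in this way. Every member was to be named if called in any comparison or tested and never called, with reads for those not tested, and from each other list up to 3 genes with the smallest p against MEFs. The members and lists were chosen with earlier results of these data known.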

Additional observations from a re-analysis of the deposited data

How the results depend on the processing

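Over all refits, the 44 calls of P450 genes in single comparisons gave 604 values, all in the same direction, of which 528 passed the threshold, and 25 calls passed in every refit that could be made. Requiring at least 10 counts in every library, 12 of the 44 could not be fitted, among them the 6 of Cyp2f2 and Cyp3a13. Of the 25, 19 were thus fitted under every alternative. Cyp3a13 could not have passed the main filter on its MEF libraries alone, so the direction of its calls supports nothing by itself. The 25 were those against MEFs of Cyp7b1, Cyp20a1, Cyp2d22, Cyp2f2, Cyp2j9 and Cyp3a13 with all compounds, of Cyp27a1 under carbidopa and LY-364947, of Cyp4v3 under carbidopa and CHIR-99021 and of Cyp2r1 under carbidopa, and those of Cyp7b1 for CHIR-99021 against both other compounds. Leaving out 1 library, the number of P450 genes called against MEFs was 11 to 17 under carbidopa, 8 to 17 under LY-364947 and 8 to 15 under CHIR-99021. These counts include Cyp4a14 where it passed the filter. The number between compounds was 1 to 3 for CHIR-99021 against carbidopa, 1 to 3 for CHIR-99021 against LY-364947, and 0 to 1 for LY-364947 against carbidopa. Requiring at least 10 counts in every library left 9 genes called under LY-364947 against MEFs, where fewer genes were tested, and gave 2 for CHIR-99021 against LY-364947, as did the fit of only those 2 groups. For CHIR-99021 against carbidopa the count was 1 by DESeq2, 4 without a filter and 1 in the 2 groups alone, and the cause was not tested. With a replicate block it was 1, since Cyp2j9 gave -0.72 (edgeR adjusted p = 0.0512), and the block changed no other count: 15, 14 and 12 against MEFs, 1 for CHIR-99021 against LY-364947 and 0 for LY-364947 against carbidopa. The libraries share only a number, so the block is not a pairing by origin. Values against MEFs that were not called changed sign in 3 refits. Cyp4f16 under carbidopa was -0.062 without carbidopa replicate 1 (up to 0.38 over the libraries left out). Cyp4f16 under LY-364947 was -0.071 without MEF replicate 1 (up to 0.22), and Cyp39a1 under CHIR-99021 was -0.15 without MEF replicate 2 (up to 0.87). Differences between compounds that were not called also changed sign in some refits, for example that of Cyp2s1 in every pair. With 2 libraries a group, a refit without 1 assumes that the lone library varies like the other groups.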
